A study of Mus musculus with 15 samples.

Results

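NRL peaks at 8 genes of the photoreceptor ribbon synapse and of synaptic vesicle release were followed through postnatal development of the mouse retina. The genes were Ctbp2, Pclo, Bsn, Cacna2d4, Cplx4, Stx3, Sv2b and Syp, and every peak that the deposited quantitation table assigns to one of these symbols was taken, which gave 12 of its 8996 peaks and 8 of its 6860 genes. CUT&RUN, in which a nuclease tethered by an antibody cuts out the DNA beside a bound protein, used an antibody to NRL and cells dissociated from whole retinas of C57BL/6J mice aged 2, 4, 10 or 28 postnatal days, written P2, P4, P10 and P28. The labels name no mutant, treatment or pooled animals, and age is the one factor. Each age has 2 libraries in the table, numbered 3 and 4, except that P10 has numbers 1 and 4. A further 7 libraries that the labels list were not analysed here. Nothing in the labels tells if the 2 libraries of an age are from different animals, and the p-values therefore reflect a spread that may be technical.

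NRL is the Maf-family transcription factor that commits photoreceptor precursors to the rod fate and, with the homeodomain factor CRX, binds beside rod genes. A rod ends in a terminal that releases glutamate continuously in the dark. There a protein sheet, the synaptic ribbon, holds vesicles above the active zone, where a calcium channel and SNARE proteins couple voltage to fusion. The ribbon is built mainly of RIBEYE, a protein made from an internal start of Ctbp2. Ribbon synapses form during the first postnatal weeks in the mouse retina.

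The data were sparsest at P2. Total reads in peaks were lowest at P2 (49430 and 78255) and highest at P10 (195736 and 227692). They were 85740 and 150878 at P4 and 98186 and 92360 at P28. As a share of the library scale they made up under 1% at P2, and from 2.84 to 3.08% at P10. Values below are RPKM, reads scaled to the peak's length and to the library, rebuilt from the recovered reads with the width of each peak. All 12 rod markers looked up, among them Nr2e3, had a peak in the table, against 0 of 6 Müller glia markers, 2 of 6 bipolar markers (Trpm1 and Prkca), 1 of 7 amacrine, horizontal and ganglion cell markers (Slc6a9) and 0 of 6 microglial and vessel markers. The share of all mouse genes with a peak was not worked out, so these marker counts are descriptions. In whole retina, fewer cells bound by NRL and less binding per cell cannot be told apart.

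The peaks lay at promoters in 4 genes and within or before the gene in the rest. Ctbp2, Cacna2d4, Cplx4 and Sv2b had a promoter peak (within 1 kb of a transcription start, by the authors' annotation), 4 peaks were intronic, 3 exonic and 1 intergenic. Among all peaks 55.4% were at promoters, 23.7% in introns, 3.46% in exons and 15% intergenic. The Bsn peak (chr9:108201193-108201472) lay outside the gene, 10774 bp before its RefSeq 5′ end and 3389 bp from Dag1, the gene of dystroglycan, so its assignment to Bsn is by the nearest start alone. The Pclo peak (chr5:14723551-14723907) lay 208.82 kb into the gene, in exon 1 of 4 of a transcript that the authors' annotation lists without a gene identifier of its own. The Syp peak, in exon 3 of 7 (chrX:7640851-7641184), was 5655 bp from Cacna1f, the gene of the pore of the rod calcium channel. The intron peaks of Ctbp2 (chr7:133011772-133011907 and chr7:133084109-133084232) were annotated on a transcript to which the authors' annotation gives the gene identifier of Fgfr2, while both peaks were assigned to Ctbp2 and lie inside its RefSeq extent. All coordinates are GRCm38.p6 and count from 1.

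**Figure D1:**
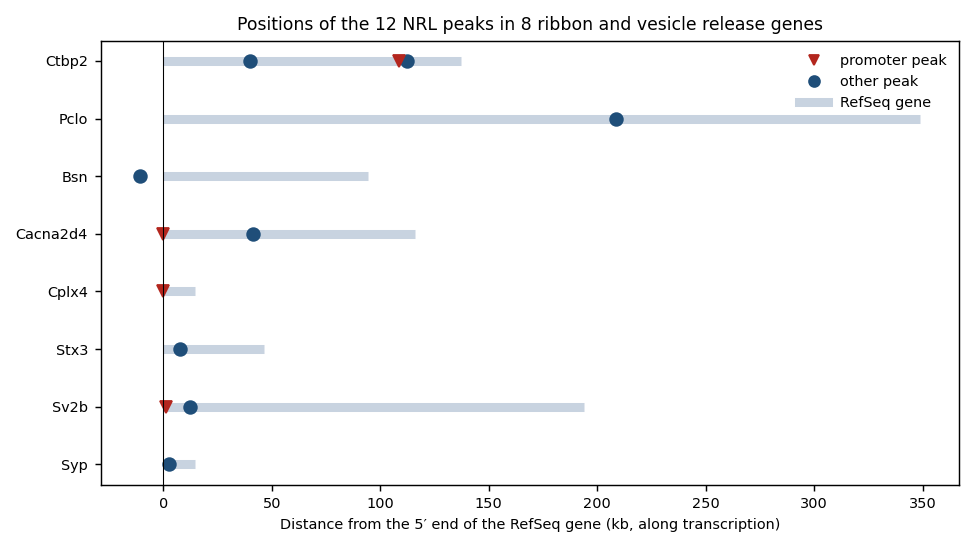
Positions of the 12 peaks along the 8 RefSeq genes, drawn from the 5′ end of each gene in kb along transcription, with triangles for promoter peaks and circles for the others. The Ctbp2 promoter peak sits inside the gene, the Pclo peak is 208.82 kb from the 5′ end and the Bsn peak lies before its gene.

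Ctbp2 has its peak at a start inside the gene, which is why its start windows are printed. RefSeq's GRCm38.p6 table of start windows, from 250 bases before a start to 50 after it, held 10 windows for 6 of the 8 genes. The Ctbp2 promoter peak (chr7:133015309-133015825) overlapped the window of start 2 (chr7:133015198-133015497, minus strand) by 189 bases, those at its 5′ end, and did not reach that of start 1 (chr7:133081811-133082110, minus strand), which RefSeq places further upstream. The tables used here do not say which protein each start makes. Capitals mark matches to 3 motifs searched on both strands: TGCTGA, the core of a Maf recognition element; TGANTCA, an AP-1 element; and TAATCC, a CRX-type element that reads GGATTA on the other strand.
Ctbp2 start 2: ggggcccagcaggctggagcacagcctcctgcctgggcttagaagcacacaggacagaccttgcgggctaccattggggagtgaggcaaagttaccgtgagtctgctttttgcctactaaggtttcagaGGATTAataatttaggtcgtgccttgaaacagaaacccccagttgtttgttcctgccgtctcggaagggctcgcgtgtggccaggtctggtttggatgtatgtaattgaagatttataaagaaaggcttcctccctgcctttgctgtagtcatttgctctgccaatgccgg
Ctbp2 start 1: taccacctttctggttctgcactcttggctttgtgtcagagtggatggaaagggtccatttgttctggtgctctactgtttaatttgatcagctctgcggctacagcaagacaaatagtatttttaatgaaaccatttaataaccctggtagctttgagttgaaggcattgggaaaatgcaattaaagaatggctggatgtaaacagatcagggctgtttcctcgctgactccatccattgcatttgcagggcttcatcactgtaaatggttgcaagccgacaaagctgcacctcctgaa
Start 2 held 1 match, GGATTA at bases 130 to 135, 121 bases before the start and inside the stretch covered by the peak. Start 1 held none. Sv2b start 3 (chr7:75302560-75302859, minus strand) is shown because it was the one window of the 10 with a Maf-type match, TGCTGA at bases 251 to 256, beside GGATTA at bases 160 to 165, although neither Sv2b peak overlapped it.
Sv2b start 3: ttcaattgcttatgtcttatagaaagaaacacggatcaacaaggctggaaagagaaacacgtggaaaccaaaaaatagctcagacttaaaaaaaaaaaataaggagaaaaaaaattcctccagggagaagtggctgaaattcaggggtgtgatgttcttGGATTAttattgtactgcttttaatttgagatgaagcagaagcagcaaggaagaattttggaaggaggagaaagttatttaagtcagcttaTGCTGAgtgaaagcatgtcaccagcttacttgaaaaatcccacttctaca
Matches to the CRX-type element also stood in single windows of Sv2b start 1, Stx3 and Syp. Of all 32851 windows in the table, 19.5% hold the Maf-type core, 7.81% the AP-1 element and 7.06% the CRX-type element. A match describes letters only, and the windows say nothing of the peaks that lie outside them.

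The deposited peak lists, 1 per age, held all 12 peaks at P10 and fewer at the other ages. Pclo and the Sv2b promoter were in every list. Bsn and the Sv2b intron were listed at P2, P4 and P10, the Ctbp2 and Cacna2d4 promoters at P4, P10 and P28, and Cplx4 at P10 and P28. Both Ctbp2 introns, the Cacna2d4 exon, Stx3 and Syp were listed at P10 alone. Counted by age, 4 of 12 peaks (33.3%) were in the P2 list, 6 (50%) in the P4 list, 12 (100%) in the P10 list and 5 (41.7%) in the P28 list, against 13.5, 35, 83.2 and 38.6% of all peaks in the table. At P28, 4 of 4 promoter peaks and 1 of 8 other peaks, that of Pclo, were listed, against 51.3% and 22.9% of such peaks in the table. By the authors' signal Pclo ranked 14 of 7520 at P10, and the Sv2b promoter 72 of 3482 at P28. The lists differ in length, so ranks in them show no change, and among the 1221 strongest peaks of each list the counts were 4, 4, 7 and 5 in order of age. At P2 those 1221 are the whole list, which held 13.5% of all peaks. The like share was not worked out for the other ages, so these counts are descriptions.

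**Figure D2:**
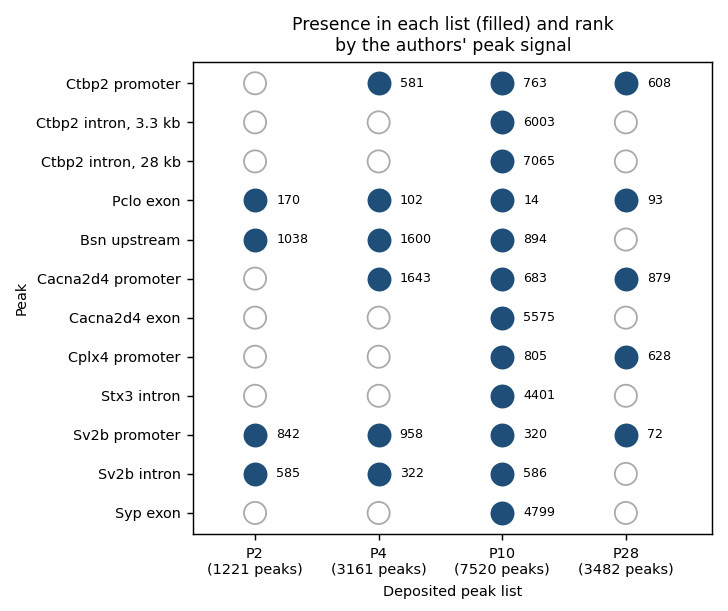
Presence of the 12 peaks (rows) in the deposited peak list of each age (columns), filled where a listed peak overlaps by at least 1 bp, with its rank by the authors' signal. All 12 are listed at P10, and 5 at P28, of which 4 are promoter peaks.

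The ribbon gene Ctbp2 had its highest signal at P10 at all 3 of its peaks. Its promoter gave 3.17 and 4.05 (P2), 4.42 and 23.8 (P4), 43.9 and 42.7 (P10) and 10.5 and 8.23 RPKM (P28). The P10 libraries were the highest, and the P4 libraries were far apart, on 18 and 86 reads. The intron peak 3341 bp from its start gave 1.85 and 1.40 (P2), 1.87 and 6.30 (P4), 19.7 and 24.8 (P10) and 3.42 and 6.02 RPKM (P28). Again both P10 libraries stood above all 6 others. The second intron peak was weaker, with 3.05 and 1.53 (P2), 0 and 6.91 (P4), 8.90 and 6.04 (P10) and 3.75 and 3.96 RPKM (P28). The authors' annotation puts it 27559 bp from a start. Its coordinates (chr7:133084109-133084232) place it nearer to RefSeq start 1, upstream of that window (chr7:133081811-133082110). It rested on 0 to 7 reads per library, and its P10 and P4 libraries overlapped.

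Pclo and Bsn encode piccolo and bassoon, giant scaffold proteins of the active zone, of which bassoon anchors the ribbon to the membrane. The Pclo peak was the strongest of the 12 by mean signal, at rank 133 of 8996, with 6.35 and 10.7 (P2), 13.9 and 23.6 (P4), 62.7 and 60.1 (P10) and 13.0 and 17.9 RPKM (P28). The groups at P10 and at every other age did not overlap. The peak before Bsn gave 4.05 and 6.80 (P2), 3.63 and 10.2 (P4), 15.8 and 15.2 (P10) and 3.32 and 8.19 RPKM (P28). Its P10 libraries were the highest, and those of the other 3 ages overlapped.

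Cacna2d4 encodes the auxiliary α2δ4 subunit of the photoreceptor calcium channel. Its promoter peak (chr6:119236324-119236544) gave 4.56 and 3.44 (P2), 4.60 and 9.69 (P4), 18.5 and 23.1 (P10) and 10.5 and 8.89 RPKM (P28). P10 was highest, and both P28 libraries were above both P2 libraries. The peak in exon 15 of 38 (chr6:119277588-119277827) was among the weakest, with 1.05 and 0.793 (P2), 2.65 and 3.57 (P4), 5.25 and 8.32 (P10) and 1.29 and 3.41 RPKM (P28). At P2 it held 3 reads in all.

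Among the genes of vesicle fusion, Cplx4 encodes a complexin of photoreceptors, which clamps and promotes SNARE-driven fusion, and Stx3 the syntaxin that serves as target-membrane SNARE at ribbon synapses. The Cplx4 promoter peak (chr18:65970167-65970444) gave 1.36 and 2.74 (P2), 2.74 and 10.8 (P4), 27.8 and 31.9 (P10) and 17.3 and 7.66 RPKM (P28). The ages P10 and P4 did not overlap, nor did P28 and P2. The peak in intron 1 of 10 of Stx3 (chr19:11813844-11814002) gave 0 and 1.20 (P2), 3.99 and 4.49 (P4), 7.93 and 14.1 (P10) and 4.87 and 6.18 RPKM (P28). With 0 and 1 reads at P2, every later library was above both P2 libraries.

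Sv2b encodes a transporter-like glycoprotein of synaptic vesicles, and Syp synaptophysin, an abundant vesicle membrane protein. The Sv2b promoter peak (chr7:75307804-75308078) gave 3.21 and 4.84 (P2), 4.16 and 10.9 (P4), 30.4 and 21.8 (P10) and 14.6 and 37.5 RPKM (P28). The P28 libraries lay on either side of those of P10. The peak in intron 1 of 12 of Sv2b (chr7:75296853-75297159) gave 3.69 and 10.5 (P2), 7.86 and 24.2 (P4), 37.5 and 24.8 (P10) and 6.56 and 12.3 RPKM (P28). Here the P28 libraries overlapped those of P2 and were below those of P10. The Syp exon peak gave 1.89 and 1.14 (P2), 0.76 and 1.28 (P4), 8.96 and 7.47 (P10) and 1.39 and 2.94 RPKM (P28). Its 2 P10 libraries held 19 and 20 reads and each other library 2 to 6.

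**Figure D3:**
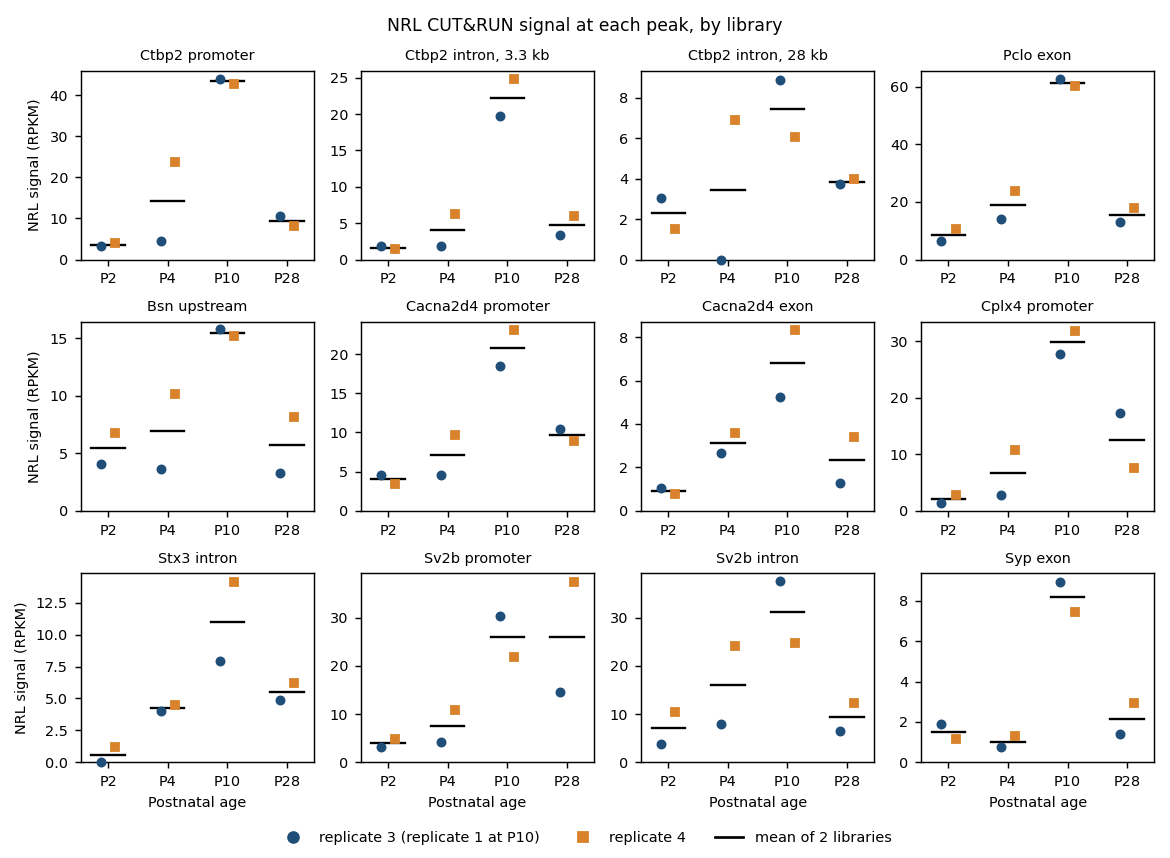
NRL signal in RPKM (vertical axis, from 0, scaled per panel) in each of the 8 libraries at the 12 peaks, by postnatal age (horizontal axis); circles are replicate 3 (replicate 1 at P10), squares replicate 4 and bars the mean of 2 libraries. The mean is highest at P10 for 11 peaks, and P4 replicate 4 is above P4 replicate 3 at all 12.

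Most of the 12 peaks had their highest signal at P10, as did most peaks of the table. The mean was highest at P10 for 11 of them and at P28 for the Sv2b promoter, and over all peaks it was highest at P10 for 70.4% and at P28 for 18.2%. Every peak of the table is in at least 1 of the lists, so the 5 peaks listed at P10 alone entered it through the age at which they are high, and their place in this count is partly a matter of how peaks were chosen. Of the 3767 table peaks listed at P10 alone 91.7% were highest at P10, and of the 5229 others 55%. P4 replicate 4 exceeded P4 replicate 3 at all 12 peaks. The P28 mean as a percentage of the P10 mean was lowest at the Ctbp2 intron peak 3341 bp from its start (21.2%), the Ctbp2 promoter (21.6%), Pclo (25.2%) and Syp (26.4%). It was 30.2% at the Sv2b intron, 34.6% at the Cacna2d4 exon, 37.2% at Bsn, 41.8% at Cplx4, 46.5% at the Cacna2d4 promoter, 50.1% at Stx3 and 51.6% at the other Ctbp2 intron peak. At the Sv2b promoter it was 100%. In a limma F test over the 4 ages, with Benjamini-Hochberg adjustment over all peaks, 10 of 12 peaks passed an adjusted p of 0.05 (45.9% of all peaks did). Bsn (adjusted p = 0.11) and the second Ctbp2 intron peak (adjusted p = 0.17) did not. The count was 4 by limma-voom and 6 when libraries were centred, and the counts over all peaks under these settings are not given. Leaving out 1 library, which leaves 1 at its age, gave fewer in some fits and more in others.

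At P10 against P4, NRL signal rose at Ctbp2, Pclo, Cplx4, Sv2b and Syp. Changes are limma estimates on log2(RPKM + 1), which understate the change of weak peaks, and a call is an adjusted p under 0.05 over all peaks. Of 12 peaks, 6 were called higher and 0 lower, where 15.6% of all peaks were called higher and 1.51% lower. The Ctbp2 intron peak 3341 bp from its start rose by 2.34 ± 0.54 (SE, adjusted p = 0.0059) and the Ctbp2 promoter by 1.94 ± 0.61 (adjusted p = 0.032), averaging 43.3 RPKM at P10 and 14.1 RPKM at P4. Cplx4 averaged 29.8 RPKM at P10 and 6.76 RPKM at P4, a rise of 2.21 ± 0.59 (adjusted p = 0.015). Syp rose by 2.20 ± 0.46 (adjusted p = 0.0032), with 39 reads at P10 and 5 reads at P4. The Sv2b promoter rose by 1.77 ± 0.58 (adjusted p = 0.038) and Pclo by 1.71 ± 0.54 (adjusted p = 0.034). The 6 other peaks, with estimates from 0.90 at the Cacna2d4 exon to 1.57 at the second Ctbp2 intron, missed the threshold. The Cacna2d4 promoter was nearest to it, at 1.49 ± 0.54 (adjusted p = 0.056, 95% interval 0.38 to 2.60). Libraries did not overlap, P10 above P4, at 11 of 12 peaks, as at 58.9% of all peaks. The median change was 1.64, against 0.73 over all peaks. Syp and the Ctbp2 intron peak 3341 bp from its start are listed at P10 alone, where 26.3% of peaks were called higher, and such peaks are favoured in this test by their choice. At the 7 peaks that another list also holds, 4 were called, against 7.9% of table peaks held by another list. All 7 are in the P10 list too, while the 7.9% covers peaks not listed at P10 as well. The shares are therefore not like for like.

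Most of these calls were lost when libraries were centred, and the size of the rise depended on which P4 library was kept. The share of the library scale inside peaks was 2.84 to 3.08% at P10 and 1.09 to 2.15% at P4. The median of a library over all peaks was higher by 0.71 at P10, and when libraries were centred on their medians 1 of the 6 calls was kept, the Ctbp2 intron peak 3341 bp from its start (1.62, adjusted p = 0.032). At all 12 peaks the rise was larger without P4 replicate 4 than without P4 replicate 3. At the Ctbp2 promoter it was 3.03 and 0.84. Fewer peaks were called without P4 replicate 3 or either P10 library, and more without P4 replicate 4. With a pseudocount of 0.1 in place of 1 the count was 0 in this comparison and in the other 3. For P10 against P4, the number called over all peaks moved the same way under each of these settings, centring included. These moves are therefore not particular to the 12 peaks.

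At P28 against P10, signal fell at Ctbp2, Pclo and Syp and did not move detectably at the Sv2b promoter. Of 12 peaks, 4 were called lower and 0 higher, where 20.7% of all peaks were called lower and 1.29% higher. The Ctbp2 promoter fell by 2.10 ± 0.61 on the log2 scale (limma, adjusted p = 0.017), with 9.36 RPKM at P28 and 43.3 RPKM at P10, and the Ctbp2 intron peak 3341 bp from its start by 2.05 ± 0.54 (adjusted p = 0.0099). Pclo fell by 1.94 ± 0.54 (adjusted p = 0.014), with 15.5 RPKM at P28 and 61.4 RPKM at P10. Syp fell by 1.58 ± 0.46 (adjusted p = 0.017). The Sv2b intron (-1.65 ± 0.61, adjusted p = 0.053) and the Cacna2d4 exon (-1.26 ± 0.47, adjusted p = 0.056) lay just outside the threshold. The Sv2b promoter averaged 26.1 RPKM at both ages, a difference of -0.12 with a 95% interval of -1.33 to 1.08 (adjusted p = 0.90), and whether it differed from the Sv2b intron in its change was not tested. Libraries did not overlap, P28 below P10, at 11 of 12 peaks, as at 61.7% of all peaks. The median change was -1.34, against -0.69 over all peaks. Syp and the called Ctbp2 intron peak, listed at P10 alone, had to be high at P10 to be in the table, which favours a lower value at P28, and 29.5% of such peaks were called lower. At the 7 peaks that another list also holds, 2 were called, against 14.2% of table peaks held by another list. That share too covers peaks not listed at P10, as the 7 are, so it is not like for like. The median was -1.16 at the 4 promoter peaks and -1.48 at the 8 others, against -0.41 and -1.16 over all promoter and other peaks. With each library centred on its median (a shift of -0.6 between these ages) 3 calls were kept, those of Pclo, the Ctbp2 promoter and the Ctbp2 intron peak 3341 bp from its start, and the Sv2b promoter value became 0.48 (adjusted p = 0.51). Leaving out either P10 library or P28 replicate 3 gave fewer calls, and leaving out either P4 library gave more. This held at these peaks and over all peaks.

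The adult-stage comparison, P28 against P2, found more signal at the Sv2b promoter, Cplx4 and Stx3. These were the 3 of 12 peaks called, all higher, where 9.64% of all peaks were called higher and 3% lower. The Sv2b promoter averaged 26.1 RPKM at P28 and 4.02 RPKM at P2, a rise of 2.31 ± 0.58 (limma, adjusted p = 0.012). Cplx4 averaged 12.5 RPKM at P28 and 2.05 RPKM at P2, a rise of 2.08 ± 0.59 (adjusted p = 0.023). Stx3 rose by 2.13 ± 0.51 (adjusted p = 0.0074), on 11 reads at P28 and 1 read at P2, a scaled ratio of 11.6 with an exact 95% interval of 1.68 to 497 that covers counting error only. The Ctbp2 promoter (1.17 ± 0.61, adjusted p = 0.19), the Cacna2d4 promoter (1.10 ± 0.54, adjusted p = 0.16) and Pclo (0.81 ± 0.54, adjusted p = 0.30) were not called, and Bsn was at 0.01 (95% interval -1.17 to 1.18). Libraries did not overlap, P28 above P2, at 9 of 12 peaks, as at 52.5% of all peaks. The median change was 0.95, against 0.57 over all peaks, and at the 4 promoter peaks 1.62, against 0.66 over all promoter peaks. With each library centred on its median, 2 calls were kept, the Sv2b promoter and Stx3, and the uncalled values of the Sv2b intron, Bsn and Syp changed sign. Over the alternatives described below the rise ran from 1.66 to 2.96 at the Sv2b promoter. It ran from 1.36 to 2.62 at Cplx4 and from 1.55 to 3.96 at Stx3. Leaving out 1 library, which leaves 1 at its age, gave fewer calls in some fits and more in others.

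**Figure D4:**
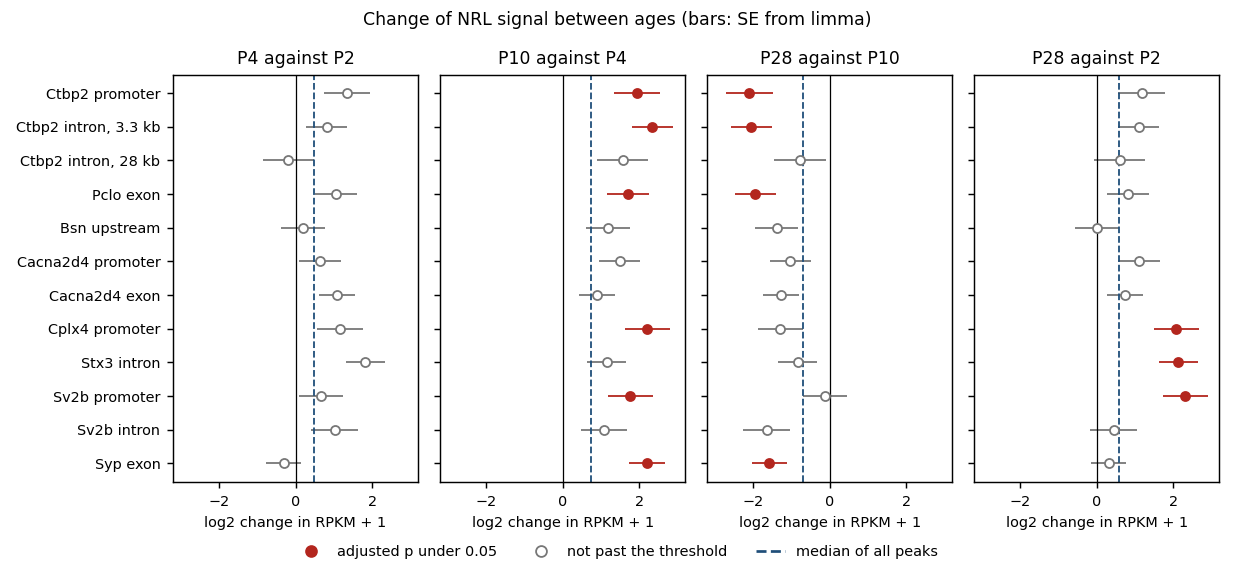
Change of log2(RPKM + 1) at the 12 peaks (rows) in 4 comparisons of ages, as limma estimates with their SE; filled points passed an adjusted p of 0.05 and dashed lines mark the median of all 8996 peaks. For P10 against P4, 6 points are filled on the right of 0; for P28 against P10, 4 on the left, with the Sv2b promoter near 0.

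Between P2 and P4 no peak of these genes passed the test. The limma count was 0 of 12, as over the whole table (0% called), with 3 peaks at an unadjusted p under 0.05, and limma-voom on the recovered reads also called 0. The lowest adjusted p was that of Stx3 (1.82 ± 0.51, adjusted p = 0.11), on 10 reads at P4 and 1 read at P2, a scaled ratio of 8.87 with an exact 95% interval of 1.26 to 385. The Ctbp2 promoter was at 1.34 ± 0.61 (adjusted p = 0.31), and its 95% interval of 0.08 to 2.59 is wide. Libraries did not overlap, P4 above P2, at 7 of 12 peaks, as at 40.1% of all peaks. The median change was 0.91, against 0.48 over all peaks. In some fits without 1 library, which leaves 1 at its age, more peaks were called, both among these 12 and over all peaks.

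Other genes of presynaptic release were read from the same fit through the strongest peak of each gene. Of 42 listed genes, 16 had a peak, and the table assigned none to Rims1, Rims2, Cacna1f, Cabp4, Vamp2 or Slc17a7, the gene of the vesicular glutamate transporter of photoreceptors. The share of all mouse genes with a peak was not worked out, so 16 of 42 is a description only. At P10 against P4, 6 of the 16 were called higher and 0 lower, where 13.2% of 6860 genes were called higher and 1.4% lower. These were Sh3gl2, encoding endophilin, a membrane-bending protein of vesicle recycling (3.33 ± 0.65, limma adjusted p = 0.0025), Cacnb2, the calcium channel β2 subunit (2.32 ± 0.52, adjusted p = 0.005), Nsf, the ATPase that takes SNARE complexes apart (2.20 ± 0.59, adjusted p = 0.016), Syngr1, a vesicle protein (2.18 ± 0.54, adjusted p = 0.0089), Erc1, an active-zone protein (1.86 ± 0.57, adjusted p = 0.027), and Unc119, a lipid-binding protein abundant in photoreceptor synapses (1.84 ± 0.56, adjusted p = 0.026). The Sh3gl2 peak gave 41.0 and 31.8 RPKM at P10, against 0.648 and 7.29 RPKM at P4. The peaks of Erc1, Cacnb2, Nsf and Syngr1 are listed at P10 alone and entered the table through that age. The Sh3gl2 peak is intronic and far (-69733 bp) from the annotated start.

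At P28 against P10, 6 of the 16 were called lower and 0 higher, where 19% of genes were called lower and 1.33% higher. Among them were Nsf (-2.31), Erc1 (-2.28), Erc2, a relative of Erc1 (-1.76), Sypl, a synaptophysin relative (-1.73), and Unc119 (-1.55), with adjusted p from 0.0069 for Erc1 to 0.048 for Unc119. Of these, Nsf, Erc1 and Erc2 have peaks listed at P10 alone. For P28 against P2, Sh3gl2 (2.78 ± 0.65, adjusted p = 0.008), Unc119 (2.23 ± 0.56, adjusted p = 0.011) and Nsf (1.88 ± 0.59, adjusted p = 0.04) were called higher, where 9.39% of genes were and 3.05% were called lower. For P4 against P2 limma called 0 of the 16 (0% of genes), with 3 at an unadjusted p under 0.05, and limma-voom called 1. The median changes were 0.71, 1.21, -1.27 and 0.60 for P4 against P2, P10 against P4, P28 against P10 and P28 against P2, against 0.49, 0.69, -0.63 and 0.59 over all genes.

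The strongest peaks of the 8 genes were set against the mean profile of those same 8 peaks. Pearson r over 8 libraries ran from 0.83 for Bsn and 0.84 for Syp to 0.97 for Cacna2d4. Each peak is part of the mean profile, which raises its r. That profile also followed the library medians over all peaks (r = 0.98), so the libraries' share of signal in peaks is common to these values and was not separated from them by the correlation. The 5 peaks outside these genes most like the profile, of 3560 compared, were those of 2900057B20Rik (r = 0.997), Tdrd7 (0.996), Tbc1d30 (0.994), Zfp94 (0.994) and Mir598 (0.993). All these correlations are descriptions over 8 libraries of 4 ages.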

How the data were processed

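Each CUT&RUN experiment used 250000 retinal cells, per the labels. Bowtie2 2.3.5.1, MACS2 2.2.5 and the build GRCm38.p6 are named in the submitters' processing notes, as is the build ASM584v2. What each was used for is not given in the sources read here. The deposited table holds RPKM, as its values show: whole reads came back for 100% of values within 0.001. The authors' divisor slips by 39 rows from one column to the next, so that a value is divided by another peak's width. The values used here are RPKM recalculated from those reads, the true width and the authors' library scale. How that scale was set is not stated. In the authors' peak lists the signal ranks peaks within a list and the score was not analysed further. The replicates behind each list are not given.

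log2(RPKM + 1) was fitted with limma 3.58.1 (R 4.3.3, trend, robust) over all 8996 peaks and 8 libraries with a term for age, which leaves 4 residual degrees of freedom, and Benjamini-Hochberg adjustment at 0.05. Motifs, RefSeq windows and overlaps of at least 1 bp were computed in Python 3.11.15. Exact intervals cover counting error only. Named presynaptic genes are those called in any comparison plus the 4 lowest adjusted p for P10 against P4. Some items under this rule are not reported here. The most similar peaks are the 5 of highest r among peaks at or above the median mean. The genes and lists were chosen with earlier results of these data known. Alternatives were a pseudocount of 0.1, median-centring, a filter at the median mean RPKM, RPKM as deposited, limma-voom on the recovered reads, leaving out each library, a replicate block over 3 or all 4 ages and 2 rules for list presence.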

Additional observations from a re-analysis of the deposited data

How the results depend on the processing

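All 13 calls at the 12 peaks kept their direction under every alternative, and each lost significance under at least 1. A pseudocount of 0.1 kept 0 of the 13, median-centring 6, RPKM as deposited 3, limma-voom 8 and the filter 11 of 11 left. Leaving out 1 library kept from 4 (either P10 library) to 13 (P2 replicate 4 or P4 replicate 4). Over these alternatives the adjusted p of the Ctbp2 promoter ran from 0.0013 to 0.31 for P10 against P4 and from 6.0e-04 to 0.6 for P28 against P10, and that of Pclo from 0.005 to 0.45 and from 0.0023 to 0.23. The cause was not tested.

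Counts of called peaks that moved by over 1.5 times were as follows. For P10 against P4 and P28 against P10, the count over all peaks also fell with the pseudocount of 0.1, centred and as deposited. In both it fell in some fits leaving out a library and rose in others. For P4 against P2 it rose in some of those fits. The shares of all peaks called under these settings are not given, so the counts below are descriptions. For P10 against P4 (6), the count was 0 with the pseudocount of 0.1, 1 centred and 2 as deposited, and 0 to 10 leaving out a library. For P28 against P10 (4), it was 0 with the pseudocount of 0.1 and 2 as deposited, and 0 to 8 leaving out a library. For P28 against P2 (3), it was 0 with that pseudocount, 0 as deposited and 0 to 5 leaving out a library. For P4 against P2 (0), it was 0 to 2 leaving out a library. Over any age (10), it was 6 centred, 4 by limma-voom and 6 to 12 leaving out a library. The P10 list held 7 of 12 peaks among its 1221 strongest, and an overlap of 50% changed no count. Adding 2 peaks inside Pclo and Cacna2d4 assigned to other genes, an alternative chosen after seeing the data, gave 5 calls for P28 against P10. For the other presynaptic genes, P4 against P2 (0) gave 2 with the filter, 1 by limma-voom and 0 to 4 leaving out a library. P10 against P4 (6) gave 0 with the pseudocount, 2 centred, 2 as deposited and 0 to 10 leaving out a library. P28 against P10 (6) gave 0 with the pseudocount, 2 centred, 1 as deposited and 0 to 9 leaving out a library. P28 against P2 (3) gave 1 with the pseudocount, 1 as deposited and 1 to 5 leaving out a library.

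Libraries of 1 replicate number are not said to share more than that number. Between P2, P4 and P28 their deviations correlated at 0.03 to 0.09, on medians of 4 to 10 reads per peak. Whether they share a preparation was not tested. With a replicate block over P2, P4 and P28, P4 against P2 gave 0 peaks of the 8 genes and 1 other presynaptic gene, and P28 against P2 gave 3 and 3. A replicate block over all 8 libraries, added after seeing the data, rests P10 on replicate 4 alone, since number 1 occurs once. It gave 0 peaks of the 8 genes and 0 other presynaptic genes for P10 against P4, 0 and 0 for P28 against P10, 0 and 0 for P4 against P2, 3 and 3 for P28 against P2, and 5 peaks over any age. Depth limits values at P2, where Stx3 had 1 read and the Cacna2d4 exon and the Ctbp2 intron peak 3341 bp from its start 3 reads each.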

Other observations

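Inside the Pclo gene a further peak (chr5:14834168-14834461), which the authors' annotation assigns to Gm9758, gave 2.14 and 4.53 (P2), 6.91 and 9.23 (P4), 6.43 and 6.37 (P10) and 1.05 and 0.557 RPKM (P28). It fell by 2.05 on the log2 scale at P28 against P10 (limma, adjusted p = 0.0048), and both P28 libraries were below all 6 others. At P10 against P4 it was at -0.28 (adjusted p = 0.68), where the Pclo exon peak rose. Whether these 2 peaks of Pclo differ in their change was not tested. Inside Cacna2d4, a peak at the promoter of Lrtm2 (chr6:119329231-119329815) gave 4.04 and 4.91 RPKM at P10 and 1.32 to 3.25 RPKM in the other 6 libraries, and was called in none of the 4 comparisons.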
